A study of Homo sapiens with 4 samples.

Results

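The genes described here are CHKA and CHKB, ETNK1, PCYT1A and PCYT2, CHPT1 and CEPT1, PEMT, and SLC44A1 and SLC44A2, which take up choline and build phosphatidylcholine and phosphatidylethanolamine. They were found by symbol in the deposited gene table, and all 10 matched 1 row each of its 61806 genes. The set was made with earlier results of these libraries known, in which CHKA had been named for its rank by p between Antcin K and untreated cells, so the genes count as selected on their read counts in these 4 libraries. Their values in that comparison are therefore a description of these libraries and support nothing beyond them.

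RNA was sequenced from JJ012, an established human chondrosarcoma line labelled as a wild-type cancer cell from bone. The Antcin K group had 2 libraries made after 24 h at 10 µM Antcin K. Antcin K is a triterpenoid of the fungus Antrodia cinnamomea. The untreated group had 2 libraries, for which the labels name no vehicle. All cells grew in the same serum-containing medium. The labels do not tell whether replicates were separate cultures. Apart from Poisson intervals of single counts, every error and p-value here therefore rests on a spread between libraries that may be technical, within 1 cell line.

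The Antcin K libraries held 16911257 to 20690078 counted reads and the untreated libraries 18757254 to 26270686. Mitochondrially encoded genes took 13.5% to 19.3% of the counts after Antcin K and 12.9% to 26.0% in untreated cells. The untreated pair differed more than the Antcin K pair, with a chi-square per gene of 166 against 34.8 for Antcin K. Of the cartilage markers, COL2A1 was at 0 in every library and ACAN reached at most 0.02 FPKM (counts per kilobase of exon, scaled to library size), while SOX9 stood at 1.38 and 2.65 FPKM after Antcin K and 5.45 and 1.97 FPKM in untreated cells. The 10 cartilage markers summed to 1.82 and 3.10 FPKM after Antcin K and 5.98 and 2.37 FPKM in untreated cells, so the line is called by its name here and not by a cartilage type. The 4 hepatocyte markers summed to 7.31 and 7.70 FPKM after Antcin K and 6.76 and 5.52 FPKM in untreated cells, with ALB at 0 in every library but TTR at 4.09 to 5.00 FPKM and SERPINA1 at 1.38 to 2.73 FPKM. The 5 blood cell markers summed to 1.52 and 2.50 FPKM after Antcin K and 2.74 and 1.32 FPKM in untreated cells. PTPRC and HBB were at 0 in every library, but CD3E was at 0.67 to 2.00 FPKM and CD68 at 0.52 to 0.85 FPKM. The 4 mesenchymal markers summed to 471 and 661 FPKM after Antcin K and 1060 and 513 FPKM in untreated cells, most of it VIM. Sums were 3.36 to 6.33 FPKM for 6 osteoblast, 0.85 to 1.40 FPKM for 4 endothelial and 0.05 to 0.08 FPKM for 3 epithelial markers.

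Phosphatidylcholine, the main phospholipid of animal membranes, is made mostly by the Kennedy pathway. A kinase phosphorylates choline, a cytidylyl transferase activates phosphocholine as CDP-choline, and a phosphotransferase joins it to diacylglycerol. A parallel branch does the same with ethanolamine, and in liver PEMT also methylates phosphatidylethanolamine into phosphatidylcholine. Many tumours hold raised choline kinase alpha and phosphocholine, which is why the pathway is studied in cancer cells.

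CHKA had about double the count level after Antcin K, the largest difference among the 10 genes, and its replicates lay close together. On the choline branch CHPT1 and PCYT1A also had higher means, while the second choline kinase gene, CHKB, had a lower one with overlapping groups. On the ethanolamine branch PCYT2 had a lower mean and ETNK1 a higher one with overlapping groups. PEMT had a lower mean, and the groups overlapped for CEPT1 and SLC44A2. By edgeR's quasi-likelihood test with Benjamini-Hochberg adjustment, 0 of the 10 genes passed an adjusted p of 0.05, where 0% of the 14717 tested genes did.

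The start regions of 4 genes are shown to give their sequence context. CHPT1 and PCYT1A had higher and PCYT2 and PEMT lower means, with no overlap between groups for any of them, but none passed the test, and they were chosen after those values were seen. SLC44A1 also had a higher mean with no overlap between groups, but its start region is not shown. Each stretch runs from 250 bases before to 50 bases after a RefSeq transcript start on GRCh38.p14, 5′ to 3′ on the gene's own strand. The first listed start is shown where a gene has several. Capitals mark GC boxes, the letters GGGCGG read on both strands.
CHPT1 promoter: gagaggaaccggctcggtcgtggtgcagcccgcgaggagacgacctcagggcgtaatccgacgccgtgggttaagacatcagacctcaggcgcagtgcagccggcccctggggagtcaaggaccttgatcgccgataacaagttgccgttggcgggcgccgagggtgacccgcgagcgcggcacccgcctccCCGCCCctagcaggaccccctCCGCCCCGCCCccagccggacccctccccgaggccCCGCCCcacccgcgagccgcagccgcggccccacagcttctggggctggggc
PCYT1A promoter: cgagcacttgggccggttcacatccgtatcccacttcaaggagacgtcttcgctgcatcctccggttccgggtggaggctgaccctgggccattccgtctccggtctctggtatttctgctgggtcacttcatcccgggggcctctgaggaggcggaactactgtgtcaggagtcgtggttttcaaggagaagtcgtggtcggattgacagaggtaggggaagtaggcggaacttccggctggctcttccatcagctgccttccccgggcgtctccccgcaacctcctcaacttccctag
PCYT2 promoter: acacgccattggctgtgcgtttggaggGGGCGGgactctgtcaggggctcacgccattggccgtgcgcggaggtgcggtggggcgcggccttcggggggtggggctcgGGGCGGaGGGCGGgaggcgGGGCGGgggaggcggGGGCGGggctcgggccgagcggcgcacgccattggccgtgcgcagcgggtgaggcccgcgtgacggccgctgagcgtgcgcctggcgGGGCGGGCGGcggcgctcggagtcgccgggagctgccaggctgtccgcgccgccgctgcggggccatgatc
PEMT promoter: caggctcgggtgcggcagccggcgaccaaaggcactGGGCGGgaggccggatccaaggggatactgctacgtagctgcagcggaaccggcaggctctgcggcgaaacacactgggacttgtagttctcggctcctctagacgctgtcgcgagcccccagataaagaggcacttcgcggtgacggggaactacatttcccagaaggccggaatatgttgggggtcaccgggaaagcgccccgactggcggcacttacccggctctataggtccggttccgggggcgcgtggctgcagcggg
These stretches lie at chr12:101697390-101697689 on the plus strand for CHPT1, and on the minus strand at chr3:196287677-196287976 for PCYT1A, chr17:81911350-81911649 for PCYT2 and chr17:17591659-17591958 for PEMT. Matches to the GC box numbered 4 in CHPT1, 0 in PCYT1A, 7 in PCYT2 and 1 in PEMT. The CCAAT box, CCAAT on both strands, had 3 matches in PCYT2 and 0 in the others. The E box CACGTG had 0 in each. Of 35116 RefSeq start regions of that length, 45.0% hold a GC box, 34.6% a CCAAT box and 7.26% an E box. Of the 10 genes 9 had an entry, 14 start regions in all, and CHKA had none. Of these 14 regions, 11 held a GC box, 3 a CCAAT box and 1 an E box, and no match of one motif overlapped a match of another. The regions are not separate, as some genes have several and those of PCYT2 share bases. Counted by gene, 8 of the 9 held a GC box in any region. A match is a run of letters and not evidence that a factor binds there.

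Choline kinase performs the first step. CHKA (ENSG00000110721, chromosome 11, 68052859 to 68121444, minus strand, hg38, protein-coding) encodes choline kinase alpha, the isoform that is often raised in tumours. It had 1322 and 967 counts in Antcin K replicates 1 and 2, and 724 and 514 counts in untreated replicates 1 and 2. As CPM, counts scaled to library size by the TMM method, that is 61.2 and 57.8 CPM after Antcin K and 27.2 and 28.8 CPM in untreated cells. Both Antcin K libraries lay above both untreated libraries, and the gap between the groups was many times the gap within either. The means were 59.5 ± 2.44 CPM after Antcin K and 28.0 ± 1.09 CPM in untreated cells (SD, n = 2 per group), a fold of 2.12. The log2 fold change, Antcin K over untreated, was 1.09 (SE, a standard error derived from the F statistic of the test, 0.23). That placed CHKA at rank 33 by p and rank 228 by upward fold change among the tested genes, of which 2.04% had a fold of 2 or more upward. Its log2 fold change ran from 1.03 to 1.16 when each library was left out in turn. With the count filter its adjusted p was 0.366 by edgeR and 0.0561 by DESeq2, an alternative test, so it passed neither. Without the count filter it passed (edgeR, adjusted p = 0.0231). In that unfiltered fit 0.723% of all genes were called, and CHKA alone of the 10. As CHKA was named for its rank by p in these libraries, that pass is a description. An unnamed antisense gene, ENSG00000255031, overlaps CHKA on the opposite strand and held 53 counts over the 4 libraries against 3527 for CHKA.

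CHKB (ENSG00000100288, chromosome 22, 50578959 to 50601455, minus strand) encodes choline kinase beta, whose loss causes a muscular dystrophy in humans. It had 19 and 30 counts after Antcin K and 34 and 45 counts in untreated cells, or 0.880 and 1.79 CPM after Antcin K and 1.28 and 2.52 CPM in untreated cells. The groups overlapped, and replicate 2 was the higher one in each. Its log2 fold change was -0.50 (SE 0.54), and without untreated replicate 2 it was 0.035. The exact 95% Poisson interval of the lowest count, 19, was 11.4 to 29.7 and that of the highest, 45, was 32.8 to 60.2, counting error only. The locus is crowded. CHKB-DT, which runs the opposite way from the CHKB start, held 201 counts over the 4 libraries against 128 for CHKB, and MAPK8IP2 on the opposite strand held 148. The readthrough gene CHKB-CPT1B on the same strand had 5 and 1 counts after Antcin K and 10 and 12 counts in untreated cells. The strand setting of the counting is not given in the sources used here, so reads of the opposite-strand neighbours cannot be told from those of CHKB with certainty. For CHKB-CPT1B no strand setting would separate its reads from those of CHKB. How reads shared by both genes were counted is not given either.

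ETNK1 (ENSG00000139163, chromosome 12, 22625075 to 22690665, plus strand) encodes the kinase that opens the ethanolamine branch. Its counts were 98 and 108 after Antcin K and 138 and 68 in untreated cells, which is 4.54 and 6.45 CPM after Antcin K and 5.19 and 3.81 CPM in untreated cells. The groups overlapped. The log2 fold change was 0.28 (SE 0.35), and ran from 0.035 to 0.52 over leaving out each library.

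**Figure D1:**
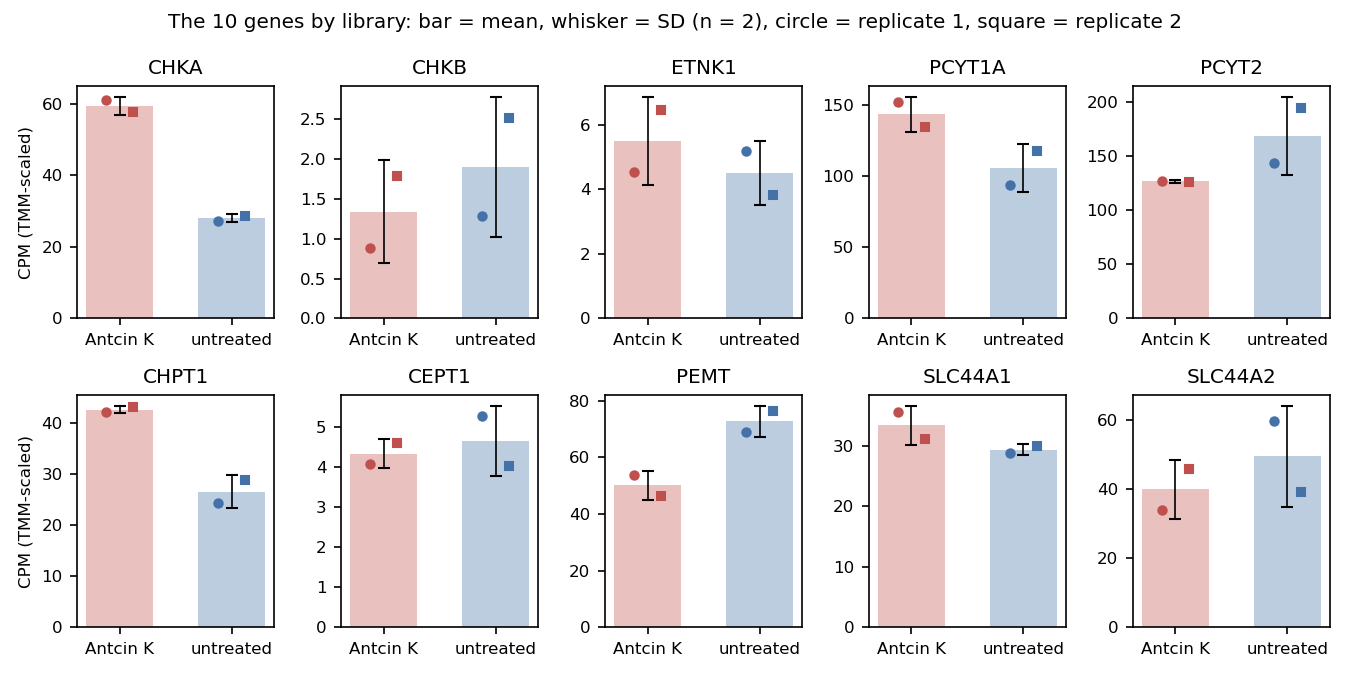
TMM-scaled CPM of the 10 genes, Antcin K on the left and untreated on the right of each panel, with bars for the mean, whiskers for the SD (n = 2), circles for replicate 1 and squares for replicate 2. The CHKA points sit at 61.2 and 57.8 CPM after Antcin K and at 27.2 and 28.8 CPM in untreated cells, and the groups overlap in the panels of CHKB, ETNK1, CEPT1 and SLC44A2.

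The cytidylyl transferases set the pace of each branch. PCYT1A (ENSG00000161217, chromosome 3, 196214222 to 196287957, minus strand) encodes the alpha form of CTP:phosphocholine cytidylyl transferase, the rate-limiting enzyme of phosphatidylcholine synthesis. It had 3283 and 2257 counts, or 152 and 135 CPM, after Antcin K, and 2491 and 2098 counts, or 93.8 and 117 CPM, in untreated cells. Both Antcin K libraries were above both untreated libraries, with untreated replicate 2 the nearer one. The means were 143 ± 12.2 CPM after Antcin K and 106 ± 16.8 CPM in untreated cells (SD, n = 2 per group). Its log2 fold change was 0.44 (SE 0.25), and without untreated replicate 1 it was 0.29.

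PCYT2 (ENSG00000185813, chromosome 17, 81900958 to 81911432, minus strand) encodes the ethanolamine counterpart. It had 2755 and 2109 counts, or 128 and 126 CPM, after Antcin K, and 3818 and 3473 counts, or 144 and 194 CPM, in untreated cells. Here both Antcin K libraries were below both untreated libraries, and the untreated replicates stood further from each other than the groups did at their nearest points. The log2 fold change was -0.41 (SE 0.26), and without untreated replicate 2 it was -0.18. ANAPC11 on the opposite strand overlaps the end of PCYT2 and held 4940 counts over the 4 libraries against 12155.

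The ratio of PCYT1A to PCYT2 within a library does not depend on how libraries are scaled. Since PCYT1A was apart upward and PCYT2 apart downward, this ratio had to be apart between groups and only restates the values of both genes. Counted per exonic base it was 1.03 and 0.923 after Antcin K and 0.563 and 0.521 in untreated cells. The transcripts of both enzymes were thus near parity after Antcin K, and PCYT1A made up 36.0% and 34.3% of their sum in untreated cells, against 50.7% and 48.0% after Antcin K. The ratio of CHKA to PCYT1A, kinase over cytidylyl transferase of the choline branch, was 0.828 and 0.880 after Antcin K and 0.597 and 0.504 in untreated cells. CHKA to CHKB stood at 51.4 and 23.8 after Antcin K and at 15.7 and 8.44 in untreated cells. Of the counted choline kinase reads per length, CHKA thus made up 98.1% and 96.0% after Antcin K and 94.0% and 89.4% in untreated cells. None of these 3 ratios overlapped between groups, and the low CHKB counts limit the last. It is also limited because the counting of reads shared by CHKB and the same-strand readthrough gene CHKB-CPT1B is not given. CHKA, named earlier for its rank by p, is the numerator of both ratios other than PCYT1A to PCYT2. Of all tested genes taken singly, 22.6% were apart upward and 23.3% downward. The share of gene pairs with ratios apart was not computed, so the ratios are only a description.

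**Figure D2:**
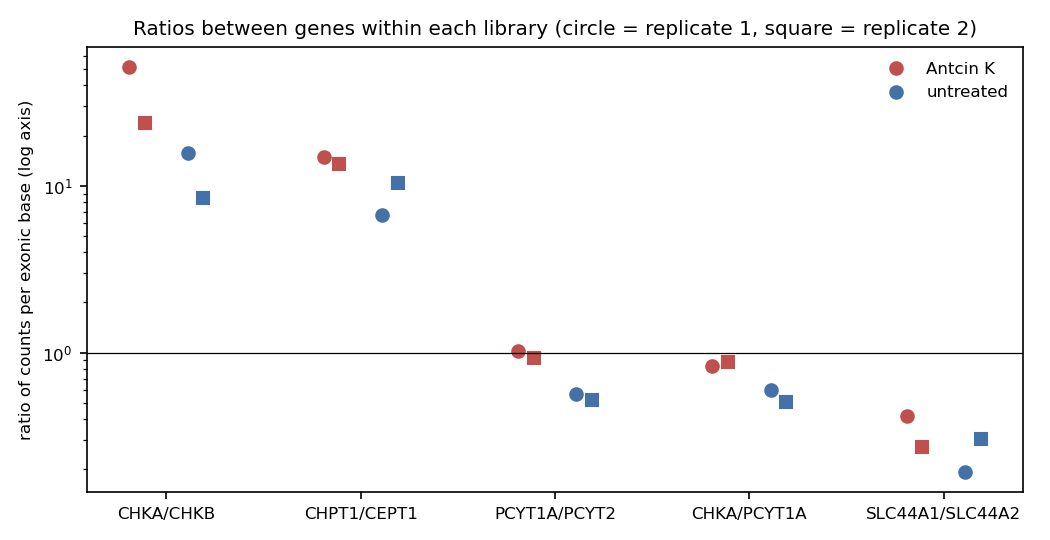
Ratios of counts per exonic base between pairs of genes within each library on a log axis, Antcin K in red and untreated in blue, circles for replicate 1 and squares for replicate 2, with a line at 1. PCYT1A over PCYT2 lies at 1.03 and 0.923 after Antcin K and at 0.563 and 0.521 in untreated cells, while the groups overlap for SLC44A1 over SLC44A2.

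The phosphotransferases complete the lipids. CHPT1 (ENSG00000111666, chromosome 12, 101696947 to 101744140, plus strand) encodes choline phosphotransferase 1, which makes phosphatidylcholine from CDP-choline. It had 909 and 721 counts, or 42.1 and 43.1 CPM, after Antcin K, and 644 and 516 counts, or 24.2 and 28.9 CPM, in untreated cells. The Antcin K libraries lay together and above both untreated ones. The means were 42.6 ± 0.692 CPM after Antcin K and 26.6 ± 3.29 CPM in untreated cells (SD, n = 2 per group), a fold of 1.60 and a log2 fold change of 0.68 (SE 0.23). Leaving out each library moved it between 0.56 and 0.81. SYCP3 and the pseudogene RNY1P16, which overlap CHPT1, had 0 counts.

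CEPT1 (ENSG00000134255, chromosome 1, 111139479 to 111185104, plus strand) encodes the dual phosphotransferase that takes CDP-choline or CDP-ethanolamine. Its counts were 88 and 77 after Antcin K and 140 and 72 in untreated cells, which is 4.08 and 4.60 CPM after Antcin K and 5.27 and 4.03 CPM in untreated cells. The Antcin K values lay between the untreated ones. Its log2 fold change of -0.11 (SE 0.33) was 0.10 without untreated replicate 1. DRAM2, on the opposite strand at the CEPT1 start, held 275 counts over the 4 libraries against 377. The ratio of CHPT1 to CEPT1 per exonic base was 14.9 and 13.5 after Antcin K and 6.65 and 10.4 in untreated cells, without overlap. CHPT1 was already apart by itself, the low CEPT1 counts limit the ratio, and the share of gene pairs apart was not computed.

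PEMT (ENSG00000133027, chromosome 17, 17505563 to 17591708, minus strand) encodes phosphatidylethanolamine N-methyltransferase, known mainly as a liver enzyme. It had 1160 and 779 counts, or 53.7 and 46.5 CPM, after Antcin K, and 1830 and 1367 counts, or 68.9 and 76.5 CPM, in untreated cells. Both Antcin K libraries were below both untreated ones. The means were 50.1 ± 5.08 CPM after Antcin K and 72.7 ± 5.43 CPM in untreated cells (SD, n = 2 per group), 1.45-fold lower after Antcin K, with a log2 fold change of -0.54 (SE 0.23). It lay between -0.66 and -0.41 over leaving out each library. PEMT had the highest level per length of the 10 genes in every library.

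The transporters bring choline across membranes. SLC44A1 (ENSG00000070214, chromosome 9, 105244622 to 105439171, plus strand), choline transporter-like protein 1 of the plasma membrane and mitochondria, had 768 and 520 counts, or 35.6 and 31.1 CPM, after Antcin K, and 763 and 535 counts, or 28.7 and 30.0 CPM, in untreated cells. The groups were apart by about 1 CPM, with a log2 fold change of 0.18 (SE 0.23), which was 0.066 without Antcin K replicate 1. SLC44A2 (ENSG00000129353, chromosome 19, 10602457 to 10644557, plus strand), choline transporter-like protein 2, had 733 and 768 counts, or 34.0 and 45.9 CPM, after Antcin K, and 1589 and 700 counts, or 59.8 and 39.2 CPM, in untreated cells. Untreated replicate 1 stood alone at the top, and without it the log2 fold change of -0.31 (SE 0.29) was 0.024. Their ratio per exonic base, SLC44A1 to SLC44A2, was 0.419 and 0.271 after Antcin K and 0.192 and 0.306 in untreated cells.

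All 10 genes passed the count filter, 5 with means above untreated and 5 with means below, where 46.2% of all tested genes had a higher mean. The groups were apart upward for 4 of the 10, CHKA, PCYT1A, CHPT1 and SLC44A1, against 22.6% of all tested genes. They were apart downward for 2, PCYT2 and PEMT, against 23.3%. At an unadjusted p under 0.05 there were 3 of 10, CHKA, CHPT1 and PEMT, against 12.4% of all tested genes. The adjusted p of the 10 ran from 0.366 for CHKA to 0.913 for CEPT1 (edgeR). That 0.366 was also the lowest of all tested genes and was shared with other genes. The median log2 fold change was 0.039 for the 10 and -0.049 for all tested genes. DESeq2, which called 0.399% of the genes it gave an adjusted p, and limma voom, which called 0%, also called 0 of the 10. Without untreated replicate 1 edgeR called 3 of the 10, CHKA, PCYT2 and PEMT, where 9.73% of all tested genes were called. Without untreated replicate 2 it called 4, CHKA, CHPT1, PCYT1A and SLC44A2, where 27.0% were. With crossed replicate numbers as a block, chosen after seeing the data, it called CHKA and CHPT1, where 9.72% were. In bulk RNA, fewer cells of a kind and less RNA per cell cannot be told apart.

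**Figure D3:**
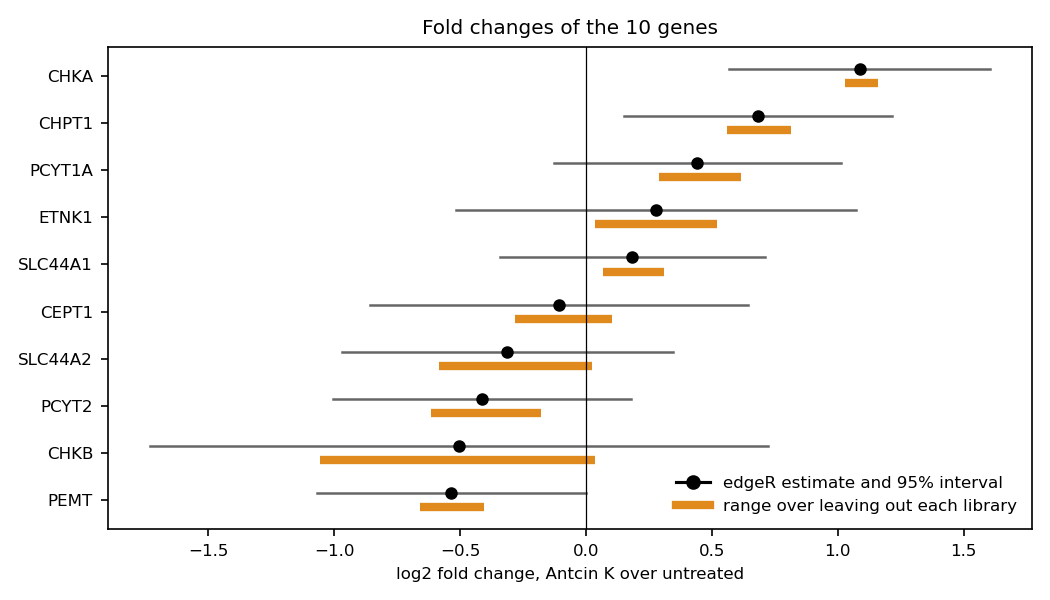
Log2 fold changes of the 10 genes, Antcin K over untreated, with the edgeR estimate and its 95% interval in black and the range over leaving out each of the 4 libraries in orange. CHKA stands at 1.09 with an orange range of 1.03 to 1.16, and the orange range crosses 0 for CHKB, CEPT1 and SLC44A2.

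Levels of different genes were compared per length. After Antcin K the order by deposited FPKM was PEMT (29.7 ± 4.12), PCYT2 (18.8 ± 0.870), PCYT1A (18.3 ± 2.24), CHKA (15.6 ± 1.22), SLC44A2 (8.16 ± 1.43), CHPT1 (7.22 ± 0.148), SLC44A1 (2.75 ± 0.361), CEPT1 (0.510 ± 0.0283), CHKB (0.470 ± 0.212) and ETNK1 (0.420 ± 0.0849, all FPKM with SD, n = 2). In untreated cells it was PEMT (41.4 ± 1.32), PCYT2 (24.0 ± 4.09), PCYT1A (13.0 ± 1.51), SLC44A2 (9.88 ± 3.30), CHKA (7.09 ± 0.0283), CHPT1 (4.34 ± 0.354), SLC44A1 (2.33 ± 0.0283), CHKB (0.645 ± 0.276), CEPT1 (0.530 ± 0.127) and ETNK1 (0.330 ± 0.0849). Neighbours whose libraries overlapped were PCYT2 with PCYT1A, SLC44A2 with CHPT1, CEPT1 with CHKB and CHKB with ETNK1 after Antcin K, and PCYT1A with SLC44A2 and CHKB with CEPT1 in untreated cells. The deposited exonic length counts every annotated exon and is 3.85 times the longest protein-coding transcript for CEPT1 and 2.99 times for CHPT1, but 1.18 times for SLC44A1. Divided by that transcript instead, CHPT1 stood at 21.6 ± 0.459 after Antcin K and 13.0 ± 1.06 in untreated cells, as FPKM for that length (SD, n = 2), and 4 of the 10 genes changed place in the Antcin K order and 5 in the untreated order. PEMT stayed highest and ETNK1 lowest by either length.

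The tested genes whose profile over the 4 libraries was most like that of CHKA were RMC1, CD83, CRLS1, DYRK4 and LUARIS. Likeness was the Euclidean distance between log2 CPM profiles centred on their means, from 0.083 for RMC1 to 0.14 for LUARIS, among 14716 genes. RMC1, a subunit gene of a late endosomal regulatory complex, had 27.1 and 24.4 CPM after Antcin K and 11.9 and 13.2 CPM in untreated cells. CRLS1, the cardiolipin synthase gene, had 4.59 and 3.82 CPM after Antcin K and 1.81 and 1.904 CPM in untreated cells. Of the other genes of the set, CHPT1 was nearest to CHKA at distance 0.43 and rank 266, PCYT1A next at rank 1335, and CHKB the farthest at rank 12512. With 4 libraries many genes share a shape, so the list describes these libraries.

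Lists of neighbouring lipid pathways held 87 other genes, 75 of them tested. Means were above untreated for 44 and below for 31 of the 75, where 46.2% of all tested genes had a higher mean. The counts of higher means per list below are to be read beside that share. By edgeR 0 of the 75 passed. The groups were apart upward for 19 and downward for 19 of the 75, so both shares lay near the 22.6% and 23.3% of all tested genes. Their median log2 fold change was 0.061, against -0.049 for all tested genes.

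Among 6 tested genes of choline uptake and export, 4 had a higher mean. FLVCR2, a membrane transporter described for choline and heme, had 19.5 and 17.5 CPM after Antcin K and 6.74 and 9.63 CPM in untreated cells, a log2 fold change of 1.18 (SE 0.29) (edgeR, adjusted p = 0.366). SLC44A5 and SLC44A4, both under 2 CPM, had log2 fold changes of -0.70 and 0.49, which over leaving out each library ran from -1.32 to -0.29 for SLC44A5 and from 0.29 to 0.69 for SLC44A4. Of 7 other enzymes of the CDP routes and of phosphatidylserine, 6 had a higher mean. SELENOI, the ethanolamine phosphotransferase gene, had 28.3 and 23.2 CPM after Antcin K and 14.5 and 20.5 CPM in untreated cells (log2 fold change 0.56, or 0.33 without untreated replicate 1). PCYT1B, the beta cytidylyl transferase gene, had 0.43, or 0.032 without untreated replicate 1, and ETNK2 had -0.49, or -0.16 without untreated replicate 2, and the groups overlapped for both.

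Diacylglycerol is the lipid that CHPT1 and CEPT1 use up. Of 15 tested genes of its supply, means were higher for 7 and lower for 8, and the groups were apart downward for 7 and upward for 4, where 23.3% of all tested genes were apart downward and 22.6% upward. PLPP3, a lipid phosphate phosphatase gene, had 4.21 and 3.47 CPM after Antcin K and 8.13 and 7.45 CPM in untreated cells (log2 fold change -1.02), and PLPP2 had -0.77. GPAT3, a glycerol-3-phosphate acyltransferase gene, had 5.23 and 3.59 CPM after Antcin K and 2.33 and 2.02 CPM in untreated cells (log2 fold change 1.02). Among 8 lysophospholipid acyltransferase genes, 4 had a higher mean. LPCAT1 stood at a log2 fold change of 0.44 (0.24 without untreated replicate 2), and the groups overlapped for LPGAT1 (0.51, or 0.038 without Antcin K replicate 2) and LPCAT4 (-0.54, or -0.069 without untreated replicate 1).

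Of 14 tested genes of phospholipid breakdown and choline release, means were higher for 6 and lower for 8. GDE1, a glycerophosphodiester phosphodiesterase gene, had 63.8 and 58.9 CPM after Antcin K and 29.4 and 36.0 CPM in untreated cells, a log2 fold change of 0.91 (SE 0.24). PNPLA7, a lysophospholipase gene, had -0.76, or -0.49 without untreated replicate 2, and GDPD3 had -0.66. In the choline oxidation and methyl supply list, 3 of 5 tested genes had a higher mean. SARDH, the mitochondrial sarcosine dehydrogenase gene, had -0.997, or -0.35 without untreated replicate 2. MAT2A, whose enzyme makes the methyl donor that PEMT uses, had 64.4 and 66.9 CPM after Antcin K and 46.9 and 47.2 CPM in untreated cells (log2 fold change 0.48). MAT2B, its regulatory partner, had 0.22, or 0.088 without Antcin K replicate 1.

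Of 7 sphingomyelin genes, 5 had a higher mean. SMPD2, a sphingomyelinase gene, stood at a log2 fold change of -0.71 (-0.34 without untreated replicate 2). SMPD4 stood at -0.25, or -0.077 without untreated replicate 1, and SGMS1, a synthase gene, at 0.22, or 0.012 without untreated replicate 1. The groups overlapped for both SMPD4 and SGMS1. Of 8 genes of CDP-diacylglycerol, phosphatidylinositol and cardiolipin, 6 had a higher mean. CRLS1 had a log2 fold change of 1.18, the CDP-diacylglycerol synthase gene CDS2 one of 0.55, or 0.27 without untreated replicate 1, and TAFAZZIN, which remodels cardiolipin, one of -0.44. Of 5 phosphatidylcholine transfer genes, 3 had a higher mean. PCTP, the phosphatidylcholine transfer protein gene, had 34.7 and 31.4 CPM after Antcin K and 10.3 and 20.3 CPM in untreated cells (log2 fold change 1.12, or 0.71 without untreated replicate 1). STARD7, which carries phosphatidylcholine to mitochondria, had 148 and 144 CPM after Antcin K and 82.1 and 107 CPM in untreated cells (0.63). PITPNB had -0.74. The adjusted p of the genes named from these lists ran from 0.366 to 0.786 (edgeR).

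**Figure D4:**
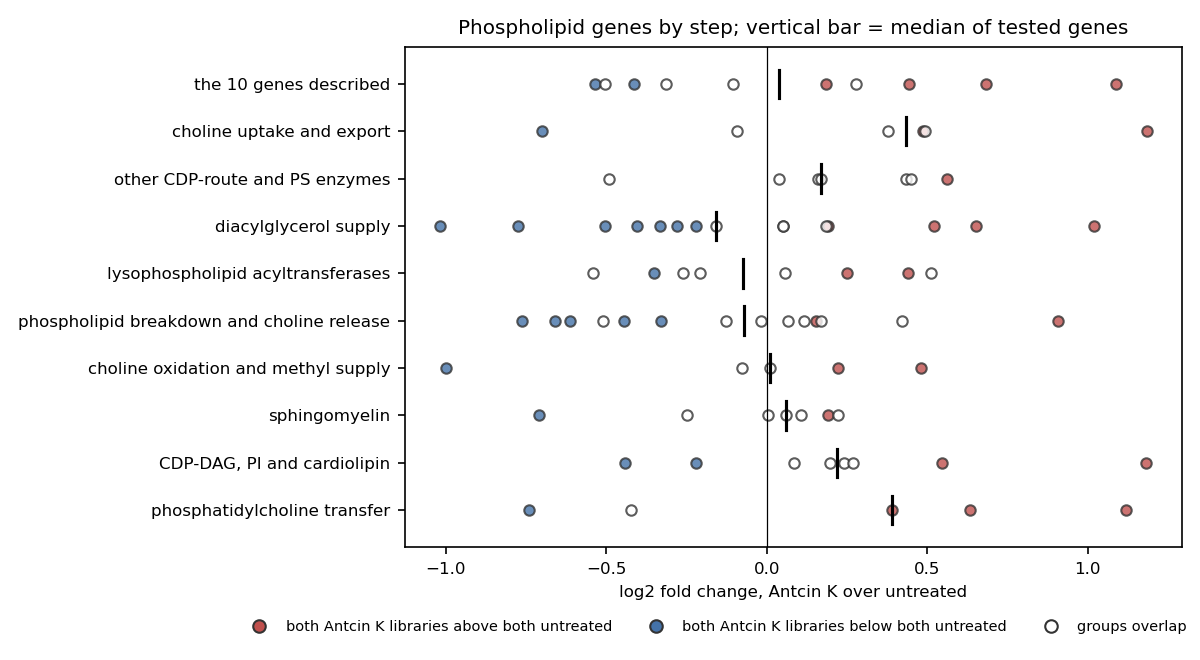
Log2 fold changes, Antcin K over untreated, of the 10 genes described and of the tested genes of 9 neighbouring pathway lists, red where both Antcin K libraries lay above both untreated libraries, blue where both lay below and white where the groups overlapped, with a vertical bar at each median. The 10 genes spread from -0.54 for PEMT to 1.09 for CHKA around a median of 0.039, and the 75 other genes split between both sides.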

How the data were processed

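Each library has its own deposited column of raw counts and one of FPKM over Ensembl genes, both made by the authors, per the file headers. FPKM recomputed from the deposited counts differed by at most 0.005. The submitters' processing notes list HISAT2 2.2.1, HTSeq 0.6.1, cutadapt 1.9.1 and hg38. Annotation release and strand setting were not given in the sources used here. Coordinates are as deposited, and 6 of the 10 genes had the same ends in GENCODE 29.

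Counts were filtered with filterByExpr (minimum count 10), which left 14717 of 28764 genes with any count. After TMM scaling they were tested with edgeR 4.0.16 under R 4.3.3 (robust quasi-likelihood, group as the only term, Benjamini-Hochberg, call at 0.05). Levels are CPM on the TMM-scaled library size. Across tested genes the median SE was 0.33 in log2 units. DESeq2 1.42.0 and limma 3.58.1 gave alternatives, and the fits were tested on simulated data. Promoter and motif searches used the RefSeq table on GRCh38.p14.

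The genes and lists were chosen with earlier results of these data known. All 10 genes are named. From each list the 3 genes with the lowest p are named, and 5 genes by likeness to CHKA. P-values rest on the spread between 2 libraries per group, with each gene's variance in the edgeR fit drawn toward the trend over all tested genes. Poisson intervals cover counting error only.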

Additional observations from a re-analysis of the deposited data

How the results depend on the processing

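The 10 log2 fold changes were recomputed under up to 16 alternatives each, and 3 of 158 values turned sign. Over leaving out each library, CEPT1 ran from -0.28 to 0.10 and SLC44A2 from -0.59 to 0.024, both turning without untreated replicate 1, and CHKB ran from -1.06 to 0.035, turning without untreated replicate 2. With all libraries, every count-based fit put CHKA between 1.07 and 1.14. ETNK1 was below the FPKM minimum of 0.5 and has no value there. The genes called, 0 by edgeR, were 208 without the count filter, 53 by DESeq2, and 3 to 3971 over leaving out each library: 1432 without untreated replicate 1, 3971 without untreated replicate 2, 7 without Antcin K replicate 1 and 3 without Antcin K replicate 2. Other scalings, the stricter CPM filter, limma voom and limma-trend on FPKM called 0. Of the 10 genes, 1 was called without the count filter (CHKA), and 0 to 4 were called over leaving out each library, 3 without untreated replicate 1 and 4 without untreated replicate 2. The untreated pair has the larger spread, and leaving out 1 of it leaves its lone sample assumed to vary like the Antcin K pair.

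The replicate number as a replicate block called 26 genes and 0 of the 10. Samples with the same number deviated in opposite directions (r = -0.324 across genes), so the numbers do not show a pairing. Crossed numbers as a block, chosen after seeing the data, called 1430 genes and 2 of the 10, CHKA (adjusted p = 8.43e-05) and CHPT1 (0.0230). Groups were apart for 6 of the 10 by CPM, 4 upward and 2 downward, where 22.6% of all tested genes were apart upward and 23.3% downward.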

Other observations

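The deposited pathway annotation, which the choice of genes did not use, places 8 of the 10 in glycerophospholipid metabolism and 6 in choline metabolism in cancer. The terms were looked up after the data were seen. Of the 71 other tested genes in glycerophospholipid metabolism, means after Antcin K were higher for 35 and lower for 36, with the groups apart upward for 15 and downward for 20. Of the 85 others in choline metabolism in cancer, means were higher for 37 and lower for 48, with the groups apart upward for 22 and downward for 20. Of all tested genes 46.2% had a higher mean, 22.6% were apart upward and 23.3% downward. By edgeR 0 passed in either term, and their median log2 fold changes were -0.0028 and -0.065, beside -0.049 for all tested genes.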
